A study of Homo sapiens with 20 samples.

Results

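The 30 genes described here are targets of the transcription factor p53, chosen by name with earlier results of these data known. They were matched by symbol in the gene count tables of the human breast cancer line T47D, where all 30 of them were found among 57820 listed genes. They were followed in cells transfected with a small interfering RNA (siRNA) against BRG1, CBX3 or FOXA1, or with a control siRNA (si-control), each at 6 h of 10 nM R5020 and at 0 h, before the hormone. R5020 is a synthetic progestin that activates the progesterone receptor. BRG1 (gene SMARCA4) is an ATPase of the SWI/SNF chromatin remodellers, CBX3 is the heterochromatin protein HP1 gamma, and FOXA1 is a pioneer transcription factor of luminal cells. Each of the 8 groups held 2 libraries. Per the labels, cells were starved of hormone and then of serum, so the 0 h group is itself a serum-free state, although 1 si-CBX3 library at 0 h carries no such protocol. Further files held 1 RNA-seq library without siRNA at each of 6 h and 0 h, and lists of BRG1 chromatin immunoprecipitation (ChIP) peaks at 30 min and 0 min of R5020. The labels do not say whether replicate libraries came from separate cultures, and p-values measure the spread between these libraries only.

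p53 is activated by DNA damage and other stresses and switches on genes for cell cycle arrest, DNA repair, apoptosis and metabolic adaptation. Its target MDM2 is the ubiquitin ligase that marks p53 for degradation and so closes a feedback loop. Many of the same genes also have other regulators, steroid hormones among them, and can be expressed without p53. T47D cells are p53-mutant, and p53 activity was not measured. Changes in these genes are therefore not read as changes in p53 activity.

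The 16 siRNA libraries held 50017255 to 74374857 assigned fragments. The siRNA targets checked the labels. SMARCA4 was at 2.26 to 5.9 CPM (a gene's share of the counts, scaled to library size with TMM) in si-BRG1, against 61.7 to 76.5 CPM in si-control. SMARCA4 also differed in the other knockdowns, at 117 to 184 CPM in si-CBX3 and 146 to 187 CPM in si-FOXA1. The part of this difference in their effects was not tested. CBX3 was at 3.07 to 6.8 CPM in si-CBX3, against 242 to 266 CPM in si-control, and FOXA1 at 44.4 to 62.8 CPM in si-FOXA1, against 166 to 408 CPM in si-control. The 9 luminal marker genes summed to 8220 to 13100 CPM in every library, while the leukocyte markers PTPRC, CD3E and CD68 stayed at or below 0.0448 CPM. A list of 12 interferon-stimulated genes set the si-control libraries apart. It summed to 755 to 1290 CPM in si-BRG1, 1160 to 1570 CPM in si-CBX3 and 240 to 367 CPM in si-FOXA1, against 2440 to 5050 CPM in si-control, with the highest sum in si-control 0 h replicate 1. This list moves with all knockdown effects given below, and its part in them was not tested. A list of 10 markers of other cell types summed to 38.6 to 67.3 CPM, most of it COL1A1 (21.3 to 58.3 CPM) and ACTA2 (3.49 to 31.4 CPM). The file headers give 1 counting thread for si-CBX3 and si-FOXA1 and 8 for si-BRG1 and si-control, so counting run and siRNA cannot be told apart where si-CBX3 or si-FOXA1 is set against si-control.

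Before hormone in si-control cells the p53 targets spanned a wide range of levels. Per kilobase of exon, TP53I3 (an oxidoreductase-like apoptosis gene) stood highest at 90.8 ± 2.72 CPM per kb (SD, n = 2), and CCNG1 (cyclin G1, which works with MDM2 and PP2A) followed at 89.3 ± 13.1 CPM per kb (SD, n = 2). These leading genes did not differ beyond their spread. TRIAP1 at 62.0 ± 4.22, PLK2 at 49.4 ± 5.08 and BLOC1S2 at 43.1 ± 0.316 CPM per kb came next (SD, n = 2 each). MDM2 ranked 6 of 30 at 31.6 ± 2.29 CPM per kb (SD, n = 2). The members ranked 12 to 19, PERP to FDXR, lay between 14.6 and 11.6 CPM per kb and many neighbours there overlapped within their SD. At the low end, GADD45A reached 1.30 ± 0.0115 CPM per kb and PLK3 0.111 ± 0.00337 CPM per kb (SD, n = 2 each). SPATA18, a mitochondrial quality control gene, did not pass the filter on low counts, with at most 0.122 CPM in any library, so 29 of the 30 members were tested.

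From 0 h to 6 h of R5020, p53 targets moved in both directions under every siRNA. The series holds no library at 6 h without R5020. In every hormone response given here, hormone and 6 h of further culture therefore cannot be told apart. In these bulk libraries a change in RNA per cell and a change in the share of cells that express a gene cannot be told apart. Of the 29 tested, 8 rose and 9 fell in si-BRG1, 10 rose and 9 fell in si-CBX3, 8 rose and 8 fell in si-FOXA1, and 7 rose and 8 fell in si-control, by edgeR's quasi-likelihood test with an adjusted p below 0.05. Of all genes tested, 18.6% rose and 17.1% fell in si-BRG1 (35.7% called), 20.4% rose and 20.5% fell in si-CBX3 (41.0%), 19.1% rose and 19.6% fell in si-FOXA1 (38.8%), and 19.5% rose and 18.1% fell in si-control (37.6%). The members' shares were 58.6%, 65.5%, 55.2% and 51.7% in the same order, above that background, although the difference itself was not tested. The members were chosen with earlier results of these data known. All tested members but GADD45A and PLK3 averaged at least 7.47 CPM in si-control at 0 h, and genes of matching level were not compared. The excess is therefore not read as a trait of p53 targets. The median log2 fold change of the members stayed close to 0, at 0.03 in si-BRG1, 0.06 in si-CBX3, -0.10 in si-FOXA1 and 0.05 in si-control, beside -0.03, -0.02, -0.04 and -0.02 for all 18806 genes. ACER2, CMBL, SUSD6 and TNFRSF10B rose under all 4 siRNAs, as did 7.46% of all genes. DRAM1 and PLK2 fell under all 4, as did 5.16% of all genes. The si-control response includes si-control 0 h replicate 1, the library with the highest interferon-stimulated sum. The part of that sum in the calls was not tested.

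**Figure D1:**
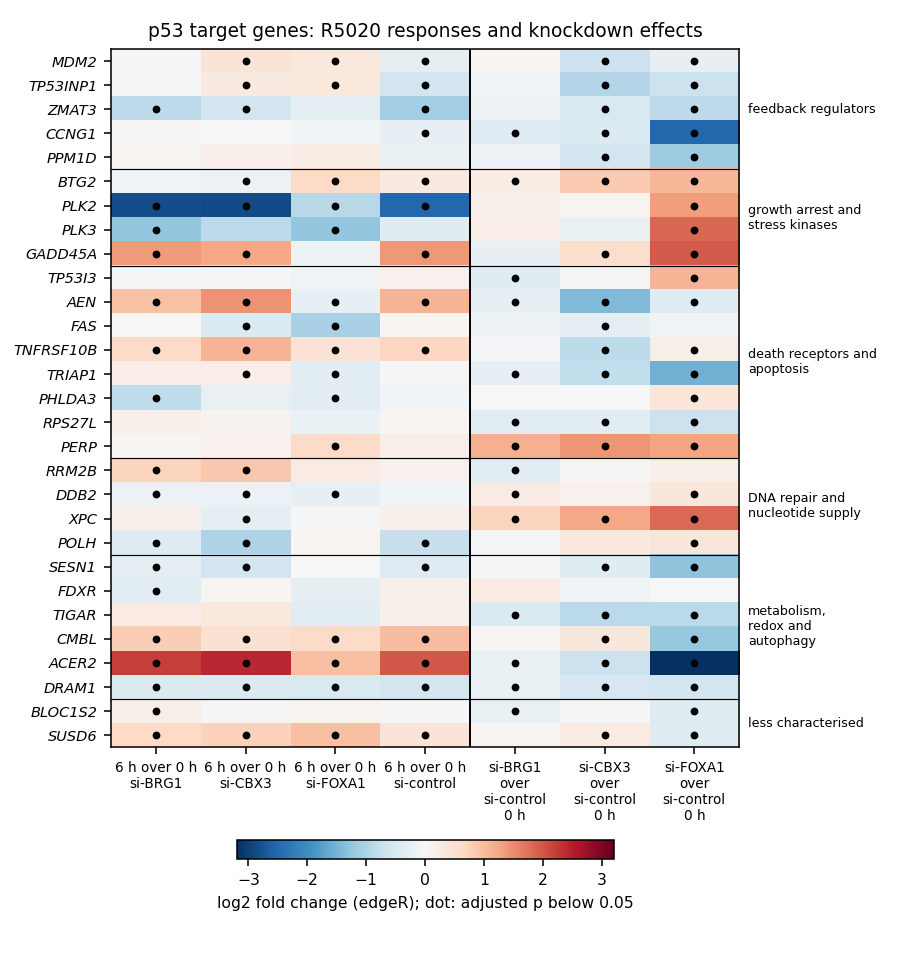
Log2 fold changes of the 29 tested p53 targets (rows, grouped by role) in the 4 hormone responses (6 h over 0 h, left) and the 3 knockdown comparisons at 0 h (knockdown over si-control, right); red is higher, blue is lower, and a dot marks an adjusted p below 0.05. PLK2 is blue and ACER2 red in every hormone response, while the si-FOXA1 column on the right runs from -3.19 for ACER2 to 1.95 for GADD45A.

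PLK2, a polo-like kinase that p53 induces under stress, had the deepest fall after hormone in si-BRG1, si-CBX3 and si-control. It was at 37.9 and 36.5 CPM at 6 h in si-BRG1, against 276 and 261 CPM at 0 h. In si-CBX3 it was at 34.3 and 34.4 CPM at 6 h, against 245 and 254 CPM at 0 h. In si-control it was at 41.1 and 41.9 CPM at 6 h, against 253 and 219 CPM at 0 h. These 3 conditions reached nearly one level, with log2 fold changes of -2.85 (SE 0.0782), -2.86 (SE 0.0787) and -2.51 (SE 0.0773). FOXA1 knockdown stood apart, with 335 and 316 CPM at 6 h, against 580 and 617 CPM at 0 h, so that even the hormone-treated libraries lay above the untreated si-control ones. The response there was -0.88 (SE 0.0725), and it was weaker than in si-control by a log2 difference of 1.63 (SE 0.104, edgeR adjusted p = 1.08e-08). In si-FOXA1 the falls of PLK3 (-1.24) and FAS (-1.03) were deeper than that of PLK2.

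The promoter of PLK2 is shown because the gene had the largest fall of the members in si-BRG1, si-CBX3 and si-control. It also holds a match to the p53 decamer, the 10-letter element of which a p53 site usually contains a pair. The sequence runs from 250 bases before to 50 bases after the RefSeq start (GRCh38.p14, chr5:58460037-58460336, minus strand), and the capitals mark the match, which begins 132 bases before the start.
PLK2: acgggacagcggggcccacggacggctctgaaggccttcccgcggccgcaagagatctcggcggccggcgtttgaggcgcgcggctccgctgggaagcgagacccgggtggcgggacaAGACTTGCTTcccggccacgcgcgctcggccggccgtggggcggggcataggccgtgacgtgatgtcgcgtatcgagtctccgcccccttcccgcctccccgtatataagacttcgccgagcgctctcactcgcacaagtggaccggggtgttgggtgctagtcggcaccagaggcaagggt

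GADD45A, a stress sensor that halts the cycle before mitosis, moved the other way. It was at 5.79 and 5.78 CPM at 6 h in si-BRG1, against 2.73 and 1.73 CPM at 0 h, and at 9.49 and 8.94 CPM in si-CBX3, against 3.98 and 3.86 CPM. In si-control it was at 5.70 and 8.42 CPM at 6 h, against 2.67 and 2.70 CPM at 0 h. It rose in these 3 conditions by log2 fold changes of 1.37 (SE 0.181), 1.23 (SE 0.168) and 1.4 (SE 0.178). After FOXA1 knockdown it was already at 10.1 and 10.7 CPM before hormone and stood at 9.50 and 9.04 CPM at 6 h, a change of -0.17 that did not pass the test. The difference of its response in si-FOXA1 from that in si-control was -1.56 (SE 0.237, edgeR adjusted p = 0.000126).

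BTG2, an antiproliferative cofactor of mRNA deadenylation, and the low PLK3, another stress kinase, complete this group. BTG2 was at 78.0 and 81.7 CPM at 6 h in si-FOXA1, against 51.8 and 50.4 CPM at 0 h, a log2 rise of 0.64 (SE 0.0759). In si-control it was at 29.0 and 31.4 CPM at 6 h, against 24.7 and 24.7 CPM at 0 h, and this rise of 0.29 (SE 0.0785) lost its call without si-control 6 h replicate 2 (edgeR adjusted p = 0.113). BTG2 was at 27.4 and 25.3 CPM at 6 h in si-BRG1, against 28.6 and 29.9 CPM at 0 h, and at 39.2 and 38.1 CPM in si-CBX3, against 41.7 and 46.9 CPM. The groups are close in both, with log2 changes of -0.15, which did not pass, and -0.20, a call with an edgeR adjusted p of 0.0479 that was lost without any of 11 libraries. PLK3 stayed between 0.151 and 1.47 CPM in all libraries. It was at 0.552 and 0.615 CPM at 6 h in si-FOXA1, against 1.47 and 1.29 CPM at 0 h, a log2 fall of -1.24 (SE 0.221). In si-BRG1 it was at 0.226 and 0.151 CPM, against 0.418 and 0.471 CPM, and this call was lost without si-BRG1 6 h replicate 2 (edgeR adjusted p = 0.0575).

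The BTG2 promoter is given for comparison with PLK2, since BTG2 rose after FOXA1 knockdown and after hormone in those cells (GRCh38.p14, chr1:203305269-203305568, plus strand). It holds no match to the p53 decamer in this window, so no letters are in capitals.
BTG2: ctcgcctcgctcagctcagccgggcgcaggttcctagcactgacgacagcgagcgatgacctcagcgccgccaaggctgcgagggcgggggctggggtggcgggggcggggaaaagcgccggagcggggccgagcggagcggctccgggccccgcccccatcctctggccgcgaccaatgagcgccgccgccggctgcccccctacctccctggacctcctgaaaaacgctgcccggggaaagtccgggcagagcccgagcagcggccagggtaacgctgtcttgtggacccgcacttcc

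Among the metabolic members, ACER2, an alkaline ceramidase of the Golgi that releases sphingosine, had the largest rise. It was at 85.7 and 79.1 CPM at 6 h in si-BRG1, against 17.2 and 18.5 CPM at 0 h. In si-CBX3 it was at 68.7 and 69.9 CPM, against 13.2 and 12.7 CPM, and in si-control at 79.6 and 85.6 CPM, against 21.0 and 20.7 CPM. Each of these is a log2 rise near 2 or more, at 2.21 (SE 0.0768), 2.42 (SE 0.0783) and 1.99 (SE 0.0762). In si-FOXA1 it was at 4.54 and 4.29 CPM at 6 h, against 2.21 and 2.37 CPM at 0 h. FOXA1 knockdown thus left the gene below its untreated si-control level even after hormone, with a response of 0.95 (SE 0.10) that was smaller than in si-control by -1.04 (SE 0.126, edgeR adjusted p = 1.34e-05).

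The ACER2 promoter (GRCh38.p14, chr9:19408759-19409058, plus strand) stands for the rising members and holds no match to the p53 decamer or to the steroid receptor element searched below.
ACER2: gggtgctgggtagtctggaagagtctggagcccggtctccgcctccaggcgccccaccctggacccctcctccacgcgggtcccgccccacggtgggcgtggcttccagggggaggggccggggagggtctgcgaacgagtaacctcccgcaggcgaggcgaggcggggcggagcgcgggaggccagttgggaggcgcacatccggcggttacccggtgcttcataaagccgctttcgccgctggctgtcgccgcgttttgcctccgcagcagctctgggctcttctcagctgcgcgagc

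CMBL, a carboxymethylenebutenolidase, rose under every siRNA. It was at 89.2 and 80.1 CPM at 6 h in si-BRG1, against 49.2 and 48.6 CPM at 0 h, and at 86.1 and 85.0 CPM in si-CBX3, against 62.1 and 60.4 CPM. CMBL stood lower in si-FOXA1, at 32.4 and 30.8 CPM, against 20 and 21.1 CPM, and in si-control it was at 94.1 and 94.1 CPM, against 45.2 and 50 CPM. No 6 h library overlapped its 0 h group, and the log2 rises were 0.79, 0.48, 0.62 and 0.98 in this order (SE 0.0724 to 0.0753). DRAM1, a lysosomal membrane protein that takes part in autophagy, fell under every siRNA. It was at 31.0 and 27.5 CPM at 6 h in si-BRG1, against 41.0 and 39.9 CPM at 0 h, and at 23.7 and 23.3 CPM in si-CBX3, against 32.5 and 32.7 CPM. For si-FOXA1 the levels were 22.0 and 22.7 CPM, against 31.0 and 32.2 CPM, and in si-control at 32.3 and 31.0 CPM, against 48.5 and 46.6 CPM. The falls had much the same size, with log2 fold changes of -0.47, -0.47, -0.50 and -0.59 (SE 0.0734 to 0.0747).

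SESN1 (sestrin 1, an inhibitor of mTORC1 signalling) was lower at 6 h in 3 of the 4 conditions. It was at 8.93 and 9.35 CPM at 6 h in si-CBX3, against 13.6 and 14.3 CPM at 0 h (log2 fold change -0.61, SE 0.0910), and at 13.7 and 13.8 CPM in si-control, against 17.7 and 19.3 CPM (-0.42, SE 0.0880). In si-BRG1 it was at 14.0 and 14.4 CPM, against 17.0 and 18.4 CPM, a call lost without si-BRG1 0 h replicate 2 (edgeR adjusted p = 0.0947) and in a fit of only the groups compared. In si-FOXA1 it stayed at 7.95 and 7.28 CPM, against 7.92 and 7.09 CPM. TIGAR, a phosphatase that lowers glycolytic flux, passed no hormone test, with log2 changes between -0.34 and 0.33. FDXR, the ferredoxin reductase of mitochondria, was at 45.3 and 32.9 CPM at 6 h in si-BRG1, against 52.5 and 48.0 CPM at 0 h (-0.36), the one hormone call it had, and it lost that call without si-BRG1 0 h replicate 1 or si-BRG1 6 h replicate 2 (edgeR adjusted p up to 0.239).

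**Figure D2:**
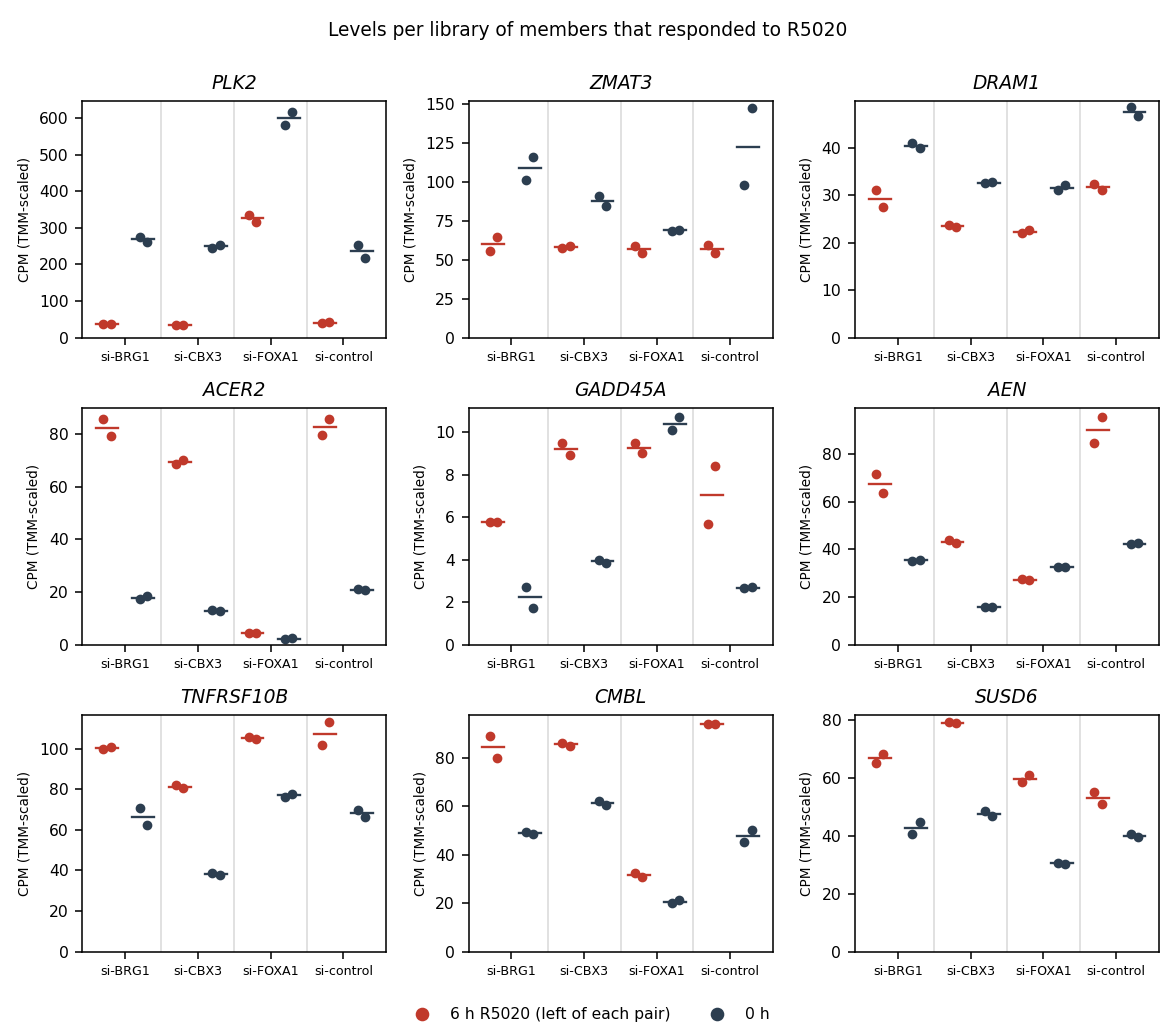
Levels of 9 p53 targets in each siRNA library, in TMM-scaled CPM on linear axes from 0; points are libraries (2 per group), short lines are group means, red is 6 h of R5020 and dark blue is 0 h. PLK2, ZMAT3 and DRAM1 (top row) are lower at 6 h, and ACER2 in si-FOXA1 lies between 2.21 and 4.54 CPM, below all libraries of the other siRNAs.

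Among the feedback regulators, MDM2 rose with hormone after CBX3 or FOXA1 knockdown and fell in si-control. It was at 243 and 262 CPM at 6 h in si-BRG1, against 254 and 269 CPM at 0 h, a log2 change of -0.05. It was at 208 and 214 CPM at 6 h in si-CBX3, against 159 and 158 CPM at 0 h, and at 280 and 254 CPM in si-FOXA1, against 216 and 207 CPM. In si-control it was at 208 and 203 CPM at 6 h, against 240 and 266 CPM at 0 h. The log2 changes that passed were 0.41 (SE 0.0713) in si-CBX3, 0.34 (SE 0.0710) in si-FOXA1 and -0.30 (SE 0.0711) in si-control. The differences from the si-control response were 0.71 (SE 0.101, edgeR adjusted p = 0.00026) for CBX3 knockdown and 0.64 (SE 0.10, edgeR adjusted p = 0.00018) in si-FOXA1.

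TP53INP1, a p53-induced adaptor linked to autophagy and apoptosis, shifted in the same directions in si-CBX3, si-FOXA1 and si-control. It was at 132 and 156 CPM at 6 h in si-BRG1, against 138 and 156 CPM at 0 h, and at 97.0 and 105 CPM in si-CBX3, against 85.5 and 79.6 CPM. After FOXA1 knockdown it was at 128 and 118 CPM, against 98.3 and 97.8 CPM, and in si-control at 111 and 102 CPM, against 148 and 171 CPM. It fell in si-control (-0.59, SE 0.0928), did not pass in si-BRG1 (-0.03), and rose after CBX3 knockdown (0.29, SE 0.0931) and after FOXA1 knockdown (0.33, SE 0.0927). These rises were lost without some library of the same siRNA, namely si-CBX3 0 h replicate 2 or 6 h replicate 2 (edgeR adjusted p up to 0.145) and si-FOXA1 0 h replicate 1, 0 h replicate 2 or 6 h replicate 1 (up to 0.0946). The differences from si-control were 0.88 (SE 0.131, edgeR adjusted p = 0.000435) for CBX3 knockdown and 0.91 (SE 0.131, edgeR adjusted p = 7.31e-05) in si-FOXA1.

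ZMAT3, an RNA-binding zinc finger protein that acts on splicing and mRNA stability, was lower at 6 h in 3 conditions. It was at 55.8 and 64.6 CPM at 6 h in si-BRG1, against 101 and 116 CPM at 0 h (-0.85, SE 0.135), and at 57.5 and 59.1 CPM in si-CBX3, against 90.9 and 84.6 CPM (-0.59, SE 0.135). In si-control it was at 59.6 and 54.0 CPM, against 97.7 and 147 CPM (-1.11, SE 0.136). The untreated si-control libraries differed widely, but both lay above the treated ones. In si-FOXA1 it was at 59.0 and 54.3 CPM at 6 h, against 68.5 and 69.0 CPM at 0 h, a change of -0.28 that did not pass, and the difference from si-control was 0.83 (SE 0.191, edgeR adjusted p = 0.00384). PPM1D, the WIP1 phosphatase that dampens p53 signalling, passed no hormone test. It was at 23.6 and 21.4 CPM at 6 h in si-FOXA1, against 20.1 and 18.4 CPM at 0 h, and at 33.8 and 36.9 CPM in si-control, against 40.1 and 43.8 CPM, and the difference of 0.48 (SE 0.137) between these responses lost its call without any of 4 libraries (edgeR adjusted p up to 0.0877). CCNG1 was called lower in si-control only, at 230 and 229 CPM at 6 h, against 248 and 305 CPM at 0 h, and that call was lost without si-control 0 h replicate 2, 6 h replicate 1 or 6 h replicate 2 (edgeR adjusted p up to 0.377).

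The ZMAT3 promoter (GRCh38.p14, chr3:179071760-179072059, minus strand) is printed as that of a feedback regulator that fell in si-BRG1, si-CBX3 and si-control, and it holds no match to the p53 decamer.
ZMAT3: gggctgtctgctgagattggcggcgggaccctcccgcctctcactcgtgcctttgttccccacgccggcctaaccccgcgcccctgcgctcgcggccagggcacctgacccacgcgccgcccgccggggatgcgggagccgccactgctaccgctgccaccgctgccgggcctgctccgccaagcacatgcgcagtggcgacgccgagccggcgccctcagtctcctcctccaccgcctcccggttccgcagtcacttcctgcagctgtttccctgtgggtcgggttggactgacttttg

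Among the death receptor and apoptosis genes, AEN, a nuclease of apoptotic cells, was at 71.4 and 63.5 CPM at 6 h in si-BRG1, against 35.1 and 35.7 CPM at 0 h. It was at 43.9 and 42.5 CPM in si-CBX3, against 16 and 15.8 CPM, and at 84.4 and 95.3 CPM in si-control, against 42.0 and 42.6 CPM. These are log2 rises of 0.93 (SE 0.0757), 1.44 (SE 0.0788) and 1.09 (SE 0.0757). After FOXA1 knockdown it was at 27.4 and 27.1 CPM at 6 h, against 32.6 and 32.6 CPM at 0 h. That fall of -0.26 lost its call without si-FOXA1 0 h replicate 1, 0 h replicate 2 or 6 h replicate 2 (edgeR adjusted p up to 0.0653), but its difference from the si-control rise held, at -1.35 (SE 0.108, edgeR adjusted p = 1.48e-07).

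TNFRSF10B (DR5, a receptor for the death ligand TRAIL) rose under every siRNA. It was at 100 and 101 CPM at 6 h in si-BRG1, against 70.8 and 62.2 CPM at 0 h, and at 81.9 and 80.6 CPM in si-CBX3, against 38.8 and 37.9 CPM. With si-FOXA1 its level was 106 and 105 CPM, against 76.0 and 77.9 CPM, and in si-control it was at 102 and 113 CPM, against 70.0 and 66.2 CPM. The log2 rises were 0.60, 1.08, 0.46 and 0.65 (SE 0.0724 to 0.0740), with the lowest untreated level in si-CBX3. FAS, the receptor for FAS ligand, was at 26.4 and 26.9 CPM at 6 h in si-CBX3, against 34.0 and 38.8 CPM at 0 h, and at 21.5 and 19.5 CPM in si-FOXA1, against 43.1 and 40.8 CPM. It did not pass at 39.3 and 41.6 CPM in si-BRG1, against 41.3 and 39.5 CPM, and at 47.6 and 46.7 CPM in si-control, against 44.2 and 46.6 CPM. The 2 death receptors thus parted after CBX3 knockdown as well as after FOXA1 knockdown. FAS fell by -0.45 (SE 0.0808) with CBX3 knocked down and by -1.03 (SE 0.0814) after FOXA1 knockdown, while TNFRSF10B rose in both. The FAS response after FOXA1 knockdown differed from that in si-control by -1.09 (SE 0.113, edgeR adjusted p = 2.81e-06). For TNFRSF10B the same difference, -0.20, did not pass.

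The other apoptosis genes were called in 0 to 2 of the 4 hormone responses each. PERP, a membrane protein of desmosomes and p53-dependent death, was at 249 and 205 CPM at 6 h in si-FOXA1, against 150 and 147 CPM at 0 h, a rise of 0.61 (SE 0.0904), and passed in no other siRNA. PHLDA3, an inhibitor of AKT at the membrane, was at 24.8 and 23.0 CPM at 6 h in si-BRG1, against 42.8 and 41.7 CPM at 0 h, a fall of -0.82 (SE 0.0986). Its other levels were 38.3 and 33.1 CPM at 6 h in si-CBX3, against 40.7 and 42.9 CPM, 38.5 and 48.0 CPM in si-FOXA1, against 52.5 and 56.2 CPM, and 37.8 and 40.4 CPM in si-control, against 41.1 and 42.4 CPM. Of these only the si-FOXA1 pair was called (-0.33), and the call was lost without si-FOXA1 0 h replicate 2 or 6 h replicate 1 (edgeR adjusted p up to 0.181). TRIAP1, an apoptosis inhibitor of the mitochondrial intermembrane space, was at 25.0 and 22.9 CPM at 6 h in si-FOXA1, against 30.3 and 30.9 CPM at 0 h, a fall of -0.35 (SE 0.0829). In si-CBX3 it was at 61.8 and 58.8 CPM, against 53 and 50.3 CPM, a rise of 0.22 that lost its call without any of 6 libraries (edgeR adjusted p up to 0.201). TP53I3 and RPS27L, a ribosomal protein paralog of RPS27, passed no hormone test. Whether fragments of RPS27L and its near-identical copy were split between them was not tested.

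The repair genes showed no common direction. POLH, the translesion polymerase eta, was at 10.5 and 11.1 CPM at 6 h in si-CBX3, against 20.5 and 21.9 CPM at 0 h (-0.98, SE 0.135), and at 9.54 and 11.3 CPM in si-control, against 19.7 and 14.7 CPM (-0.73, SE 0.136). In si-FOXA1 it kept 22.9 and 23.5 CPM, against 22.4 and 22.2 CPM, and this response differed from that in si-control by 0.78 (SE 0.187, edgeR adjusted p = 0.00493). In si-BRG1 it was at 11.1 and 14.4 CPM, against 15.8 and 17.5 CPM, a call lost without si-BRG1 0 h replicate 2 or 6 h replicate 1 (edgeR adjusted p up to 0.249) and in a fit of only the groups compared. RRM2B, the p53-inducible ribonucleotide reductase subunit, was at 117 and 135 CPM at 6 h in si-BRG1, against 76.4 and 78.8 CPM at 0 h (0.70, SE 0.109), and at 182 and 190 CPM in si-CBX3, against 101 and 104 CPM (0.86, SE 0.109). It did not pass in si-FOXA1, at 150 and 121 CPM, against 114 and 111 CPM, or in si-control, at 111 and 107 CPM, against 87.2 and 112 CPM. The si-CBX3 response of RRM2B exceeded that in si-control by 0.74 (SE 0.153, edgeR adjusted p = 0.00611). DDB2 and XPC recognise damage for nucleotide excision repair. DDB2 was at 49.1 and 42.4 CPM at 6 h in si-BRG1, against 53.8 and 51.6 CPM at 0 h, at 42.7 and 41.3 CPM in si-CBX3, against 48.3 and 48.0 CPM, at 47.1 and 46.4 CPM in si-FOXA1, against 54.4 and 58.1 CPM, and at 40.9 and 42.5 CPM in si-control, against 44.0 and 43.9 CPM. Its falls of -0.20, -0.20 and -0.27 in the knockdowns each lost their call without some library (edgeR adjusted p up to 0.308), and the si-control change of -0.08 did not pass. The one hormone call of XPC, a fall of -0.31 (SE 0.0795) in si-CBX3, was lost without si-CBX3 0 h replicate 2 or 6 h replicate 1 (edgeR adjusted p up to 0.0615).

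SUSD6, a membrane protein that is less well characterised, rose under every siRNA. It was at 65.2 and 68.3 CPM at 6 h in si-BRG1, against 40.7 and 44.7 CPM at 0 h, and at 79.4 and 78.9 CPM in si-CBX3, against 48.6 and 46.7 CPM. Under si-FOXA1 the gene reached 58.5 and 61.0 CPM, against 30.7 and 30.4 CPM, and in si-control it was at 55.0 and 51.1 CPM, against 40.7 and 39.5 CPM. The rise was 0.64 in si-BRG1, 0.73 in si-CBX3, 0.97 in si-FOXA1 and 0.40 in si-control (SE 0.0697 to 0.0706), and the si-FOXA1 rise exceeded the si-control rise by 0.56 (SE 0.0992, edgeR adjusted p = 0.000487). BLOC1S2, a subunit of a lysosome-related organelle complex, lay between 73.1 and 95.9 CPM in all 16 libraries, and its one hormone call, 0.18 in si-BRG1, was lost without si-BRG1 0 h replicate 1 or 2 (edgeR adjusted p up to 0.136).

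The hormone response itself was compared between each knockdown and si-control. It was higher for 2 and lower for 2 of 29 members in si-BRG1, where 1.49% and 3.72% of all genes were called (5.22% in all). In si-CBX3 it was higher for 6 and lower for 5, where 4.63% and 4.36% were called (8.99%). In si-FOXA1 it was higher for 10 and lower for 6, where 13.0% and 15.7% were called (28.7%). The 3 differences share the si-control libraries. The 4 calls in si-BRG1 (TP53INP1, RRM2B, PHLDA3 and BTG2) were each lost when some library was left out, with 0 calls without si-BRG1 0 h replicate 1 or si-control 6 h replicate 2 and 7 without si-BRG1 6 h replicate 1. There was 1 call without si-control 0 h replicate 2, and there were 2 without si-BRG1 0 h replicate 2, si-CBX3 6 h replicate 1, either si-FOXA1 0 h library or si-control 6 h replicate 1. In si-CBX3, MDM2, TP53INP1, RRM2B and CMBL (-0.50, SE 0.102) held in every omission, and the count ranged from 4, without si-CBX3 0 h replicate 2, to 14, with 5 without si-CBX3 6 h replicate 2 and 6 without si-CBX3 6 h replicate 1 or si-control 6 h replicate 1. In si-FOXA1, 10 of 16 held in every omission, namely PLK2, TP53INP1, ZMAT3, POLH, MDM2 and SUSD6 above the si-control response and GADD45A, AEN, FAS and ACER2 below it. The count there ranged from 10, without si-FOXA1 0 h replicate 2, to 20.

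**Figure D3:**
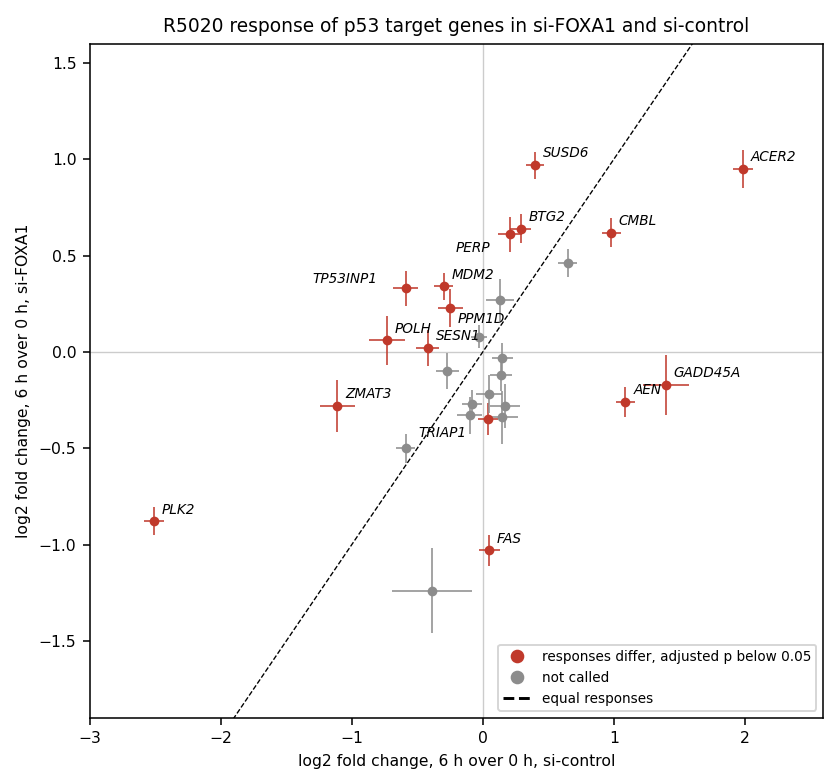
Log2 fold change at 6 h over 0 h in si-FOXA1 (vertical axis) against that in si-control (horizontal axis) for the 29 tested p53 targets, with SE bars on both axes; red marks the 16 members whose responses differ at an adjusted p below 0.05, grey the others, and the dashed line equal responses. PLK2 lies far above the line (-0.88 against -2.51), and ACER2, AEN and GADD45A lie below it.

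Before hormone, knockdown of each protein changed p53 targets, with more falls than rises among the calls. At 0 h, 4 of the 29 members were higher and 10 lower in si-BRG1, 6 higher and 14 lower in si-CBX3, and 11 higher and 15 lower in si-FOXA1, each over si-control. Among all genes tested the shares higher and lower were 15.1% and 13.4% in si-BRG1 (28.5%), 28.1% and 26.0% in si-CBX3 (54.1%), and 40.0% and 33.5% in si-FOXA1 (73.5%). The median log2 fold change of the members was -0.12, -0.24 and -0.26, beside 0.03, 0.05 and 0.11 for all genes. PERP, XPC and BTG2 were higher in all 3 knockdowns, as were 8.35% of all genes. AEN, TIGAR, CCNG1, ACER2, DRAM1, RPS27L and TRIAP1 were lower in all 3, as were 8.25% of all genes. These comparisons share one pair of si-control libraries. In si-BRG1 only PERP and XPC, both higher, and TP53I3, lower, kept their calls in every omission of a library, so that among these calls rises outnumbered falls. The si-BRG1 count ranged from 5, without si-BRG1 0 h replicate 1, to 16. It was 6 without si-BRG1 0 h replicate 2 or si-control 0 h replicate 2. In si-CBX3, 16 of 20 calls and in si-FOXA1, 24 of 26 calls held in every omission. All 3 comparisons include si-control 0 h replicate 1, the library with the highest interferon-stimulated sum. The part of that sum in the calls was not tested.

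At 6 h of hormone 5 members were higher and 5 lower in si-BRG1, where 19.6% and 17.8% of all genes were (37.3%). In si-CBX3 5 were higher and 10 lower, where 24.7% and 24.4% were (49.2%), and in si-FOXA1 12 higher and 13 lower, where 40.1% and 34.5% were (74.6%). PERP and XPC were higher, and AEN and TIGAR lower, in all 3 knockdowns at both times. The same held for 3.97% and 4.48% of all genes. TIGAR's call in si-BRG1 was lost at 0 h without si-BRG1 0 h replicate 2 (edgeR adjusted p = 0.102) and at 6 h without any of 5 libraries (up to 0.24), and AEN's at 0 h without si-BRG1 0 h replicate 1, 0 h replicate 2 or si-control 0 h replicate 2 (up to 0.11).

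XPC had graded levels over the knockdowns before hormone. It was at 38.4 and 36.3 CPM at 0 h in si-BRG1, 52.2 and 55.4 CPM in si-CBX3 and 79.5 and 80.8 CPM in si-FOXA1, against 24.8 and 21.0 CPM in si-control. The corresponding log2 fold changes were 0.70 (SE 0.0812), 1.23 (SE 0.0813) and 1.81 (SE 0.0820). At 6 h it was at 40.1 and 42.9 CPM, 43.3 and 43.6 CPM and 78.5 and 78.4 CPM, against 26.4 and 24.6 CPM in si-control. At that time si-FOXA1 was still highest and si-control lowest, while si-BRG1 and si-CBX3 were close and were not tested against each other. PERP was at 134 and 140 CPM at 0 h in si-BRG1, 171 and 161 CPM in si-CBX3 and 150 and 147 CPM in si-FOXA1, against 56.6 and 68.4 CPM in si-control. All knockdown libraries lay far above the si-control ones, with log2 fold changes of 1.13, 1.41 and 1.25 (SE 0.0921 to 0.0925). At 6 h PERP was at 141 and 139 CPM in si-BRG1, 178 and 184 CPM in si-CBX3 and 249 and 205 CPM in si-FOXA1, against 72.9 and 71.3 CPM in si-control.

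After FOXA1 knockdown, where 73.5% of all genes were called, the groups are described by role without a test between roles. All 4 growth arrest genes among the members were higher at 0 h, where 40.0% of all genes were. On the log2 scale PLK2 was higher by 1.34 (SE 0.0732), PLK3 by 1.84 (SE 0.234), GADD45A by 1.95 (SE 0.173) and BTG2 by 1.05 (SE 0.0778). CDKN1A, an arrest gene outside the members that is described below, was lower (-0.92, SE 0.0809). All 5 feedback regulators were lower, where 33.5% of all genes were. CCNG1 was at 49.4 and 47.7 CPM at 0 h in si-FOXA1, against 248 and 305 CPM in si-control (-2.51, SE 0.0963), and at 208 and 205 CPM in si-BRG1 (-0.42) and 202 and 202 CPM in si-CBX3 (-0.45). The si-BRG1 call was lost without si-control 0 h replicate 2 (edgeR adjusted p = 0.0529). PPM1D was at 20.1 and 18.4 CPM in si-FOXA1, against 40.1 and 43.8 CPM (-1.13, SE 0.0976). ZMAT3 (-0.83), TP53INP1 (-0.70) and MDM2 (-0.26) completed the falls, MDM2 with only a small one. Of the metabolic genes 5 of 6 were lower, led by ACER2 (-3.19, SE 0.0917), SESN1 (-1.30, SE 0.0904) and CMBL (-1.21, SE 0.0751), and FDXR did not pass. Of the 8 tested apoptosis genes 4 were higher and 3 lower, although the rise of TNFRSF10B (0.18) lost its call without any of 10 libraries and under every other setting except the replicate block. Of the 4 repair genes XPC, DDB2 (0.36) and POLH (0.38) were higher and none was lower, POLH with a call lost without si-FOXA1 0 h replicate 1, 0 h replicate 2 or si-control 0 h replicate 2 (edgeR adjusted p up to 0.382).

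TP53I3 and TRIAP1 show this split among the apoptosis genes. TP53I3 was at 434 and 459 CPM at 0 h in si-FOXA1, against 205 and 214 CPM in si-control (1.09, SE 0.0859), and at 165 and 154 CPM in si-BRG1 (-0.40, SE 0.0854). TRIAP1 was at 30.3 and 30.9 CPM in si-FOXA1 (-1.55, SE 0.0821) and 53 and 50.3 CPM in si-CBX3 (-0.79, SE 0.0802), against 85.1 and 93.7 CPM in si-control. In si-BRG1 it was at 76.2 and 73.6 CPM, a call of -0.26 that was lost without si-BRG1 0 h replicate 1, 0 h replicate 2 or si-control 0 h replicate 2 (edgeR adjusted p up to 0.177). TIGAR was at 4.17 and 4.06 CPM in si-CBX3 and 3.71 and 4.5 CPM in si-FOXA1, against 7.5 and 7.45 CPM in si-control, with the same log2 fall of -0.86 (SE 0.127 each).

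The 3 largest falls at 0 h after CBX3 knockdown, of AEN, TP53INP1 and TIGAR, were also called in si-FOXA1 (-0.38, -0.70 and -0.86). AEN was lower by -1.41 (SE 0.0785), at 16 and 15.8 CPM at 0 h, against 42.0 and 42.6 CPM in si-control. TP53INP1 (-0.95, SE 0.0933), TNFRSF10B (-0.83, SE 0.0737) and MDM2 (-0.67, SE 0.0713) fell as well. All 5 feedback regulators were lower at 0 h, as after FOXA1 knockdown, where 26.0% (si-CBX3) and 33.5% (si-FOXA1) of all genes were lower. The ZMAT3 call in si-CBX3 was lost without si-control 0 h replicate 2 (edgeR adjusted p = 0.179). At 6 h 0 of these 5 were called in si-CBX3, where 49.2% of all genes were. In si-FOXA1 2 were higher and 2 lower at 6 h, where 40.1% and 34.5% of all genes were.

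The comparison of si-FOXA1 with si-CBX3 at 0 h lies among libraries counted with the same thread number. Its fold changes use no si-control library, although all 16 libraries enter its estimate of spread. There 13 members were higher and 10 lower in si-FOXA1, where 34.2% and 30.6% of all genes were (64.8%). CCNG1 (-2.06, SE 0.0948), ACER2 (-2.50, SE 0.0923) and CMBL (-1.57, SE 0.0753) were lower and PLK3 (2.08, SE 0.236), GADD45A (1.41, SE 0.165) and PLK2 (1.26, SE 0.0730) higher in si-FOXA1, in the directions they had over si-control. AEN (1.03), MDM2 (0.42) and TP53INP1 (0.25) were higher in si-FOXA1 than in si-CBX3 but lower in si-FOXA1 than in si-control (-0.38, -0.26 and -0.70). The TP53INP1 call over si-CBX3 was lost without si-CBX3 0 h replicate 2 or either si-FOXA1 0 h library (edgeR adjusted p up to 0.176). The FAS call (0.21) was lost without any of 6 libraries, both si-control 6 h libraries among them. TIGAR, DRAM1, PERP and POLH, at -0.00, -0.05, -0.16 and 0.07, did not pass.

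**Figure D4:**
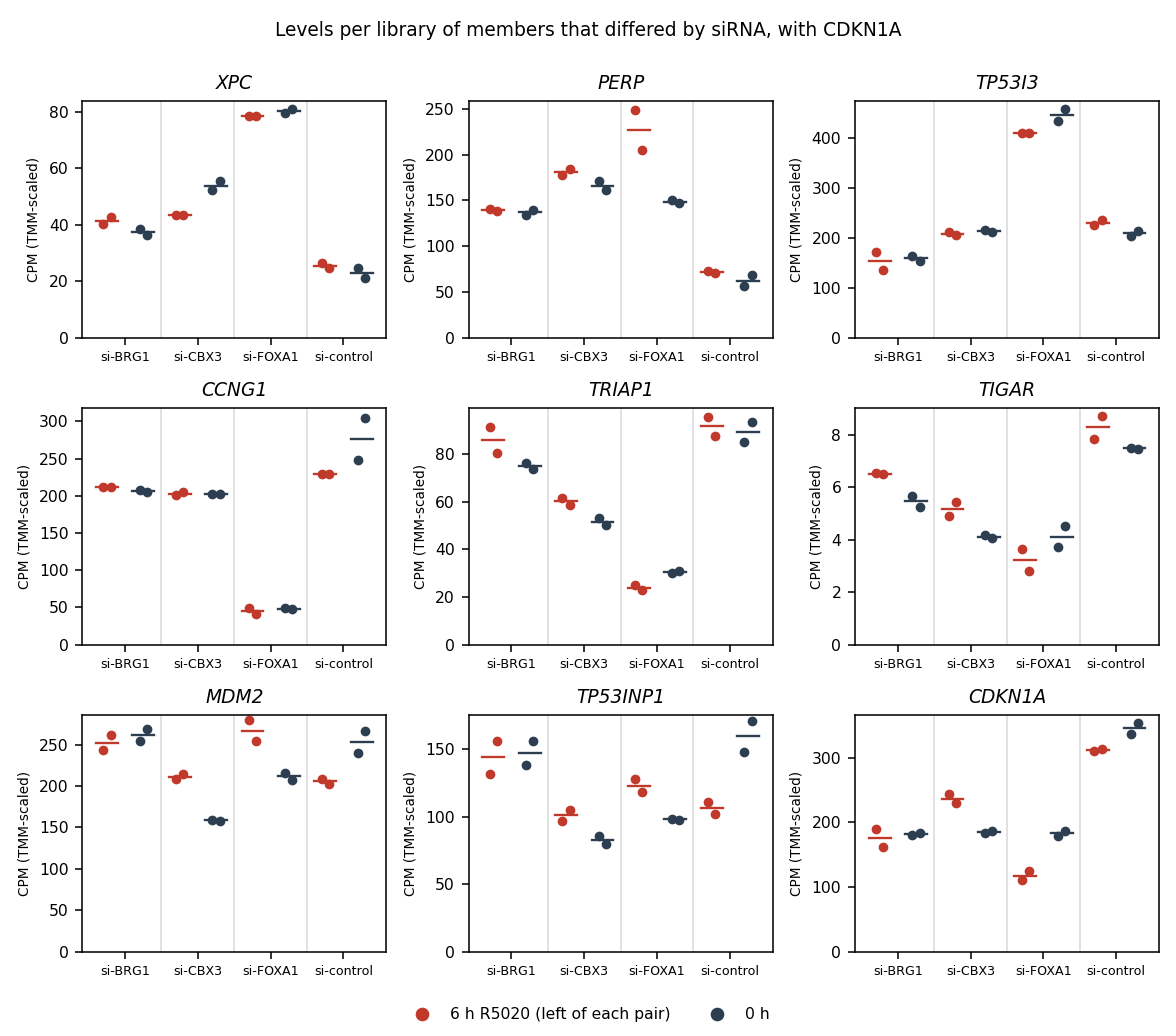
Levels of 8 of the p53 targets and of CDKN1A in each siRNA library, in TMM-scaled CPM on linear axes from 0; points are libraries (2 per group), short lines are group means, red is 6 h of R5020 and dark blue is 0 h. XPC and PERP are lowest in si-control, CCNG1 and TRIAP1 lowest in si-FOXA1, and CDKN1A highest in si-control, where all libraries lie between 310 and 354 CPM.

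CDKN1A (p21, the best-known arrest gene of p53 and not among the 30) was at 180 and 184 CPM at 0 h in si-BRG1, 183 and 187 CPM in si-CBX3 and 179 and 187 CPM in si-FOXA1, against 337 and 354 CPM in si-control. The log2 falls of CDKN1A at 0 h were nearly equal, at -0.92, -0.90 and -0.92 (SE 0.0809 each), and they share one pair of si-control libraries. At 6 h the falls were unequal, at -0.83 in si-BRG1, -0.40 in si-CBX3 and -1.41 in si-FOXA1. The hormone response of CDKN1A was -0.06 in si-BRG1, 0.35 in si-CBX3, -0.64 in si-FOXA1 and -0.15 in si-control, with calls in si-CBX3 and si-FOXA1.

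A list of 29 regulators of p53, of which 28 were tested, and one of 29 other p53 targets, of which 26 were tested, gave the setting. Of the regulators 7 rose and 7 fell with hormone in si-BRG1, 5 and 11 in si-CBX3, 6 and 10 in si-FOXA1 and 6 and 8 in si-control, with median log2 fold changes of -0.0, -0.05, -0.09 and -0.12. Of all genes tested 18.6% and 17.1%, 20.4% and 20.5%, 19.1% and 19.6%, and 19.5% and 18.1% did so in the same order, with medians of -0.03, -0.02, -0.04 and -0.02. HEXIM1, an inhibitor of the elongation factor P-TEFb that also binds p53, fell in all 4 conditions by log2 fold changes of -1.51, -1.55, -1.26 and -0.80. TP53BP2 (ASPP2, which steers p53 towards apoptosis genes) rose in all 4, by 0.82, 0.88, 0.88 and 0.73. USP7, the deubiquitinase of MDM2 and p53, rose by 1.19 in si-BRG1 and 1.29 in si-CBX3. These responses exceeded that in si-control by 0.70 (SE 0.126) and 0.81 (SE 0.126). The USP7 responses in si-control and si-FOXA1 themselves are not given here. At 0 h, 8 regulators were higher and 5 lower in si-BRG1, 10 and 9 in si-CBX3 and 13 and 11 in si-FOXA1, with medians of 0.18, -0.04 and 0.16. Of all genes 15.1% and 13.4%, 28.1% and 26.0%, and 40.0% and 33.5% were, with medians of 0.03, 0.05 and 0.11. PPP1R13B (ASPP1) was higher by 1.33 in si-CBX3 and 1.52 in si-FOXA1.

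The other p53 targets also moved both ways, and their shares and medians can be read against the same values for all genes. With hormone 5 rose and 8 fell in si-BRG1, 7 and 11 in si-CBX3, 8 and 12 in si-FOXA1 and 7 and 7 in si-control, with medians of -0.10, -0.18, -0.20 and 0.01. TNFRSF10A (DR4, the other TRAIL death receptor) rose by 2.11 (SE 0.12) in si-BRG1, 2.71 (SE 0.122) with CBX3 knocked down and 2.01 (SE 0.12) in si-control. At 0 h, 3 were higher and 5 lower in si-BRG1, 8 and 6 in si-CBX3 and 13 and 9 in si-FOXA1, with medians of -0.14, 0.02 and 0.22. STEAP3, a metalloreductase of endosomes, averaged 150 CPM in si-FOXA1, against 10.0 CPM in si-control (3.90, SE 0.0996), and ABCA12, a lipid transporter, averaged 31.6 CPM, against 262 CPM (-3.05, SE 0.0940).

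The libraries without siRNA gave a separate view of the hormone response, with 1 library per time and therefore no test. Values are in RPKM (reads scaled to length and to library size), given per transcript and summed per gene. Such a sum can also move with the mix of transcripts of a gene, and this was not tested. Of the 30 members 2 rose and 2 fell past 2-fold on the log2(RPKM + 1) scale, as did 5.87% and 1.91% of all genes (7.78%). PLK2 was at 20.6 RPKM at 6 h, against 88.6 RPKM at 0 h, a log2 ratio of -2.05, and ZMAT3 at 2.16 RPKM, against 7.22 RPKM (-1.38). ACER2 was at 11.2 RPKM, against 2.80 RPKM (1.69), and RRM2B at 17.6 RPKM, against 7.35 RPKM (1.15). The estimated reads, not scaled to library size, were 7650 at 6 h, against 5170 at 0 h, for RRM2B and 4500, against 900, for ACER2. For PLK2 they were 5370, against 30500, and for ZMAT3 3380, against 6950. RRM2B and ZMAT3 thus changed less in reads than in summed RPKM, and the si-control response of RRM2B (0.13) was not called. GADD45A was close to the line, at 3.28 RPKM, against 1.15 RPKM (0.99). Of the 15 members called in si-control 13 had a ratio of the same sign, the exceptions being TP53INP1 (16.6 RPKM, against 10.6 RPKM) and BTG2 (3.07 RPKM, against 4.18 RPKM). The median ratio of the members was -0.02, beside 0.04 for 17398 genes. SPATA18 was listed at 0 in both.

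**Figure D5:**
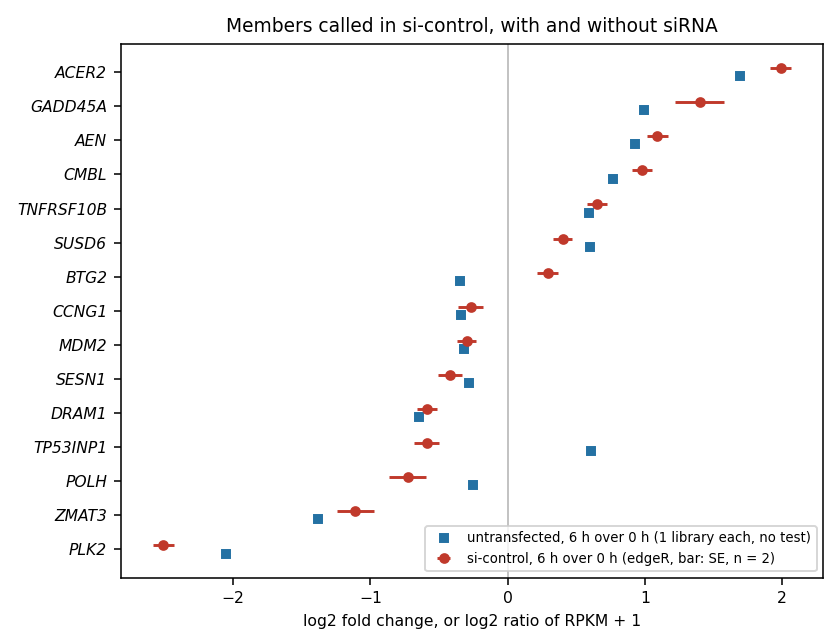
Hormone responses of the 15 p53 targets called in si-control; red circles are log2 fold changes in si-control (6 h over 0 h, bars are SE, n = 2), and blue squares are log2 ratios of RPKM + 1 in cells without siRNA (1 library per time, no test). Squares and circles lie on the same side of 0 for 13 genes, and TP53INP1 and BTG2 lie on opposite sides.

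The BRG1 ChIP lists, 1 per time, were searched for peaks reaching within 5 kb of each gene's 5′ end (hg19). At 30 min of R5020, 6 of the 30 members had a peak (GADD45A, BTG2, PLK2, MDM2, DRAM1 and SUSD6), where 10.3% of all tested genes did. At 0 min 3 others had one (ZMAT3, CCNG1 and FAS), where 1.89% of all tested genes did. The PLK2 peak at 30 min spans chr5:57752733-57757174, and the GADD45A peak chr1:68150639-68152655. The 6 peaks at 30 min had their centres 186 bp (BTG2) to 1134 bp (PLK2) downstream of the 5′ end, whereas those at 0 min lay 3288 to 7017 bp downstream. The authors' peak scores of these peaks were 54.83 to 126.35 at 30 min and 51.13 to 67.84 at 0 min, in lists whose lowest scores were 50.01 and 50. The 30 min set mixes rising and falling members, with PLK2 and DRAM1 lower and GADD45A and SUSD6 higher at 6 h in si-control.

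RefSeq promoters were at hand for 24 of the 30 members. The p53 decamer, searched on both strands, was found in 4 of them and in 6.54% of 27305 promoters of the same length. No member promoter held 2 decamers at most 13 bases apart, as 0.0293% of all promoters did. The matches are shown with up to 10 bases on either side and the decamer in capitals, to let the letters be compared. They begin 132, 59, 34 and 11 bases before the start, on chromosomes 5, 15, 15 and 17 (GRCh38.p14).
PLK2: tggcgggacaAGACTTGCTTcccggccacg
RPS27L: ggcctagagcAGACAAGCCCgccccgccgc
AEN: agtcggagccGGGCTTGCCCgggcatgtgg
FDXR: gggcaggagcGGGCTTGCCCtgcggagcag
AEN and FDXR hold the same 10 letters. AEN rose with hormone in si-control and FDXR did not pass. The steroid receptor element AGAACA or its complement TGTTCT was found in 1 of 24, the promoter of XPC, and in 14.9% of all promoters. A match is a description of letters, and its absence from this window says nothing of binding elsewhere.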

How the data were processed

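The 16 siRNA files are deposited as raw fragment counts per gene. The tool was featureCounts 1.4.6-p2 on GENCODE 19 gene models, counting pairs by strand, per the file headers. Per the submitters' processing notes reads were trimmed with Trimmomatic and aligned with STAR to hg19. The 2 libraries without siRNA are deposited as RPKM per transcript, summed here per gene, and their quantification tool is not named by the labels or headers. The peak lists carry a deposited score per peak, with Bowtie 1.0.0 and HOMER named in the submitters' processing notes. Counts were fitted with edgeR 4.0.16 in R 4.3.3 (filterByExpr, TMM, quasi-likelihood, 1 mean per group over 16 libraries with 8 residual degrees of freedom, two-sided, Benjamini-Hochberg over 18806 genes), and a call is an adjusted p below 0.05. CPM use library totals of 50017255 to 74374857 fragments multiplied by TMM factors. The scripts were tested on simulated data. Alternatives were DESeq2 1.42.0, its size factors, no filter on low counts, only the groups compared, a replicate block and leaving out each library.

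The members and lists were chosen with earlier results of these data known. Values per library are given for members called in one direction in all hormone responses, for the 3 largest called rises and falls of each hormone response or knockdown at 0 h, for members whose responses differed and for MDM2, and otherwise in part. Of the other lists, CDKN1A and up to 3 genes per comparison with the lowest p could be named. One regulator gene of these lists is not reported here and was left out of their counts.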

Additional observations from a re-analysis of the deposited data

Results flagged for a closer look

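Differences of the hormone response from that in si-control passed edgeR's test of the difference itself for 31 pairs of a p53 target and a knockdown, given here as log2 differences. They were 4 of 29 members in si-BRG1, 11 in si-CBX3 and 16 in si-FOXA1, where 5.22%, 8.99% and 28.7% of all genes were called. In si-BRG1 these were RRM2B at 0.57, TP53INP1 at 0.55, BTG2 at -0.44 and PHLDA3 at -0.72. In si-CBX3 the response was higher for TP53INP1 (0.88), RRM2B (0.74), MDM2 (0.71), TNFRSF10B (0.43), ACER2 (0.43) and SUSD6 (0.33), and lower for CMBL (-0.50), FAS (-0.50), BTG2 (-0.49), XPC (-0.46) and PLK2 (-0.35).

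In si-FOXA1 the response was higher for PLK2 (1.63), TP53INP1 (0.91), ZMAT3 (0.83), POLH (0.78), MDM2 (0.64), SUSD6 (0.56), PPM1D (0.48), SESN1 (0.44), PERP (0.41) and BTG2 (0.35). It was lower for GADD45A (-1.56), AEN (-1.35), FAS (-1.09), ACER2 (-1.04), TRIAP1 (-0.39) and CMBL (-0.36). TP53INP1 differed in the same direction in all 3 knockdowns, which share the si-control libraries. It fell in si-control (-0.59) but was higher at 6 h in the cells without siRNA (log2 ratio 0.61, 1 library per time, no test). Calls that held without each library in turn were those of TP53INP1, RRM2B, MDM2 and CMBL in si-CBX3, and of PLK2, TP53INP1, ZMAT3, POLH, MDM2, SUSD6, GADD45A, AEN, FAS and ACER2 in si-FOXA1. BTG2, whose call was lost in each knockdown without some library, had a negative difference in si-BRG1 and si-CBX3 and a positive one in si-FOXA1.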

How the results depend on the processing

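Over 14 comparisons there were 231 calls of members, of which 165 held under every setting tried and 0 changed sign. The number of called members moved by over 1.5 times when a library was left out in 4 comparisons. It ranged from 5 to 16 for si-BRG1 over si-control at 0 h, from 0 to 7 for the difference of the si-BRG1 response, from 4 to 14 for that of si-CBX3 and from 10 to 20 for that of si-FOXA1. The si-BRG1 difference came to 1 call among members and 67 among all genes in a fit of only the groups compared. Omissions gave 12 to 21 calls over the hormone responses, 17 to 26 for CBX3 or FOXA1 knockdown before hormone and 8 to 26 over the knockdowns at 6 h. Over all genes, omissions moved the 981 calls of the si-BRG1 difference to 147 to 2840, the 1690 of si-CBX3 to 825 to 2567 and the 5352 of si-BRG1 at 0 h to 3246 to 6538. Samples with the same replicate number did not deviate together (correlations of -0.059 to 0.117). With that number as a block, the hormone responses gave 16 (si-BRG1), 19 (si-CBX3), 19 (si-FOXA1) and 16 (si-control) calls, the knockdowns at 0 h 15, 21 and 26, those at 6 h 12, 16 and 25, and the differences 5, 10 and 17. The si-CBX3 differences of PLK2 and SUSD6, the si-CBX3 response of BTG2 and the si-BRG1 response of BLOC1S2 did not pass with the block. Within 1 kb, BRG1 peaks lay at 0 members at 0 min, and the higher-scoring part of the 30 min list left 3. With a pseudocount of 0.1 RPKM, 6 members passed 2-fold without siRNA. Shares of all genes are not given for the replicate block or for these peak and pseudocount settings. Their member counts are therefore not read against a background. Depth limits PLK3 and SPATA18, the members with the fewest fragments.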
